A study of Mus musculus with 6 samples.

Results

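Transcripts of 10 genes that carry antigen receptor and natural killer receptor signals into the cell were followed in thymic iNKT1 cells: the adaptors Tyrobp, Fcer1g and Hcst, the CD3 chains Cd247, Cd3d, Cd3e and Cd3g, the kinases Zap70 and Syk, and the scaffold Lat. They were chosen by gene symbol, and all 10 were found among the 17985 genes of the table. The list was drawn up with earlier results of the same comparison known, so their group differences are given as descriptions; each adjusted p only places a gene in the fit across all genes.

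The cells were iNKT1 cells, invariant natural killer T cells of the subset that expresses the transcription factor T-bet (Tbx21), isolated from the thymus of mice on a C57BL/6 background. Control mice (Ctrl) had the genotype Tbx21CreTg;Rosa26-LSL-YFP+/+, and the conditional knockout (cKO) was Tbx21CreTg;Rosa26-LSL-YFP+/+;Tgfbr2F/F, so that both groups carried the Cre transgene and the Cre-dependent fluorescent reporter, neither group was treated, and only the cKO group had the loxP-flanked Tgfbr2 alleles. Cre in this line follows Tbx21 expression, so Tgfbr2, which encodes a receptor chain for TGF-beta, is targeted only once a cell has switched on that driver. Each group had 3 libraries described as independent replicates; the labels do not say whether these came from separate mice, and age and sex were not given in the sources used here, so the p-values measure only the spread between these samples.

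As background, most of these proteins work through a shared device. The T cell receptor and many activating natural killer receptors have no signalling tail of their own and assemble with small membrane adaptors. CD3 zeta (Cd247), CD3 delta, epsilon and gamma, FcR gamma (Fcer1g) and DAP12 (Tyrobp) carry immunoreceptor tyrosine-based activation motifs, which recruit the paired kinases ZAP-70 and Syk once phosphorylated, whereas DAP10 (Hcst) carries a motif that recruits phosphoinositide 3-kinase. ZAP-70 then phosphorylates LAT, the membrane scaffold on which downstream enzymes gather. FcR gamma can pair with itself or with CD3 zeta.

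The bases before the transcription start are shown for Fcer1g and for Cd3d and Cd3g, CD3 chains that lie in divergent orientation. Fcer1g was lower in every cKO library than in any Ctrl library but did not pass with group as the only term (limma, adjusted p 0.129). The proportion of Cd3d to Cd3g did not overlap between the groups. That proportion was chosen after its values were seen and was not tested, and 20.1% of pairs of genes with means of at least 100 CPM likewise had no overlap. The sequences are RefSeq's, on build GRCm38.p6, 250 bases each, and windows were found for 9 of the 10 genes, all but Tyrobp. Capitals mark matches, on either strand, to CAGAC (SMAD), TGTGGT (RUNX), GGAAGT (ETS) or AGGTGTGA (T-box). The windows are chr1:171234350-171234599, minus strand, for Fcer1g, chr9:44981536-44981785, plus strand, for Cd3d, and chr9:44980432-44980681, minus strand, for Cd3g.
Fcer1g: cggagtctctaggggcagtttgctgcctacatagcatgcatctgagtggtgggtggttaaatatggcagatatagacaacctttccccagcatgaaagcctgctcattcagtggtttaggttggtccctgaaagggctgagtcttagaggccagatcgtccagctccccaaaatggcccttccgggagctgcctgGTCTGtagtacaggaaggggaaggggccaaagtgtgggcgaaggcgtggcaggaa
Cd3d: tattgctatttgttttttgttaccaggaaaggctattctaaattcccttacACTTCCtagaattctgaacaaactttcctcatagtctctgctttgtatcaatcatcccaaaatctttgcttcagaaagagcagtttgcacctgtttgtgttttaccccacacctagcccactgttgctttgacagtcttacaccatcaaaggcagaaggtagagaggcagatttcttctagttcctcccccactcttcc
Cd3g: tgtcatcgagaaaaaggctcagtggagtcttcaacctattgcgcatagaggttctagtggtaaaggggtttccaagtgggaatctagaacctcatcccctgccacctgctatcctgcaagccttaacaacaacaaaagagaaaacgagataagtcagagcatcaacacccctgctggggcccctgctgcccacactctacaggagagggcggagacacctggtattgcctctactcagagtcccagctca
The Fcer1g window held 1 CAGAC match, on the opposite strand, which begins 55 bases before the start and is the only capital run in it. Such a match was present in 42.2% of all 32851 RefSeq promoter windows of that length, so windows with this motif are common. The Cd3d window held 1 GGAAGT match, a motif found in 19.7% of windows, and the Cd3g window held none of the 4 motifs. TGTGGT was present in 14.0% of windows and AGGTGTGA in 1.12%.

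The deposited values are CPM, reads scaled to a common library total. Library totals ran from 28832779 to 68092478 reads, so 3 reads correspond to between 0.0441 and 0.104 CPM. Both replicate 3 libraries stood apart from the other 4: 4406 (Ctrl) and 4590 (cKO) genes were at 0 reads in them, against 0 to 5 genes elsewhere, and each group held 1 of them. The targeted gene Tgfbr2 lay between 425 and 461 CPM in Ctrl and between 258 and 290 CPM in cKO, without overlap (adjusted p in limma 0.0207). In the authors' deposited edgeR results it had a log2 fold change of -0.64 with an adjusted p of 0.373 and was not marked. The Tgfbr2 reads cover the whole gene, undeleted exons included. Of 9 iNKT1 markers 8 were analysed here and none was at 0 in a library; the highest were Il2rb (2357 to 4383 CPM over the 6 libraries) and Tbx21 (679.8 to 1027 CPM). Among these markers Xcl1 was lower in cKO (limma, adjusted p 0.0281) and Il2rb passed with the replicate block, as higher (0.0166).

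Tyrobp encodes DAP12, the adaptor of several activating natural killer and myeloid receptors. The 3 Ctrl libraries, in order of replicate number, held 13.0, 10.04 and 8.52 CPM, and the 3 cKO libraries held 51.7, 31.4 and 30.7 CPM, from 309 to 451 reads per Ctrl library and 1321 to 2089 per cKO library. The lowest cKO library was above the highest Ctrl library, and cKO replicate 1 was the highest of all. The mean went from 10.5 ± 2.29 to 37.95 ± 11.95 CPM (SD, n = 3 each), 3.61 times the Ctrl level. On the log2(CPM + 1) scale the difference was 1.73 ± 0.25 (SE; limma, adjusted p 0.0410), and 17 of 15691 tested genes rose more. With the replicate number as a block, which assumes that same-numbered libraries are paired, the limma adjusted p was 0.000307. The log2 difference was 1.91, 1.55 and 1.73 in replicates 1, 2 and 3. Without the block, edgeR's quasi-likelihood test gave an adjusted p of 0.0775, and no fit that left out 1 library passed, with limma adjusted p from 0.0638 to 0.216. In bulk RNA, more cells with the transcript and more transcript per cell cannot be told apart, here and for each gene below.

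Fcer1g (chromosome 1, 171229572 to 171234365, minus strand) encodes FcR gamma, the chain shared by Fc receptors and some natural killer receptors. It was read at 134, 122 and 136 CPM in Ctrl and at 89.4, 77.2 and 97.5 CPM in cKO, so every cKO library lay below every Ctrl library. Mean levels were 130.7 ± 7.97 (Ctrl) and 88.0 ± 10.3 CPM (cKO; SD, n = 3 each), so 67.3% of the Ctrl level was left. The log2 difference of -0.57 ± 0.11 (SE) did not pass with group as the only term (limma, adjusted p 0.129) and passed with the replicate block (0.00883). It also passed within replicates 1 and 2 alone (limma adjusted p 0.0191). Without the block, adjusted p was 0.595 in limma with TMM scaling, 0.424 in edgeR's quasi-likelihood test and 0.0116 in DESeq2. No fit that left out 1 library passed, with limma adjusted p from 0.0816 to 0.491. The log2 difference was -0.58, -0.65 and -0.48 in replicates 1, 2 and 3. Tyrobp and Fcer1g thus differed in opposite directions in all 3 same-numbered pairs.

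Hcst encodes DAP10, an adaptor of the receptor NKG2D. It was read at 255.7, 259 and 233 CPM in Ctrl and 258, 243 and 219 CPM in cKO, with overlapping groups, means of 249.3 ± 14.0 and 239.9 ± 19.6 CPM (SD, n = 3 each) and a 95% interval of the log2 fold change from -0.28 to 0.17. Hcst (chromosome 7, 30417717 to 30419854, minus strand) lies 139 bases beyond the end of Tyrobp (chromosome 7, 30413788 to 30417577, plus strand), and the 2 genes are transcribed towards each other. Of the nearest listed genes, Nfkbid, 4154 bases beyond Tyrobp, lay between 101 and 138 CPM in Ctrl and between 91.0 and 168 CPM in cKO. On the other side, Sdhaf1, 89892 bases from Tyrobp, lay between 8.62 and 9.46 CPM in Ctrl and between 7.11 and 9.59 CPM in cKO. The groups overlapped at both, and also at the next genes Syne4 and Aplp1. Among these neighbours the separation of the groups was thus seen at Tyrobp alone.

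**Figure D1:**
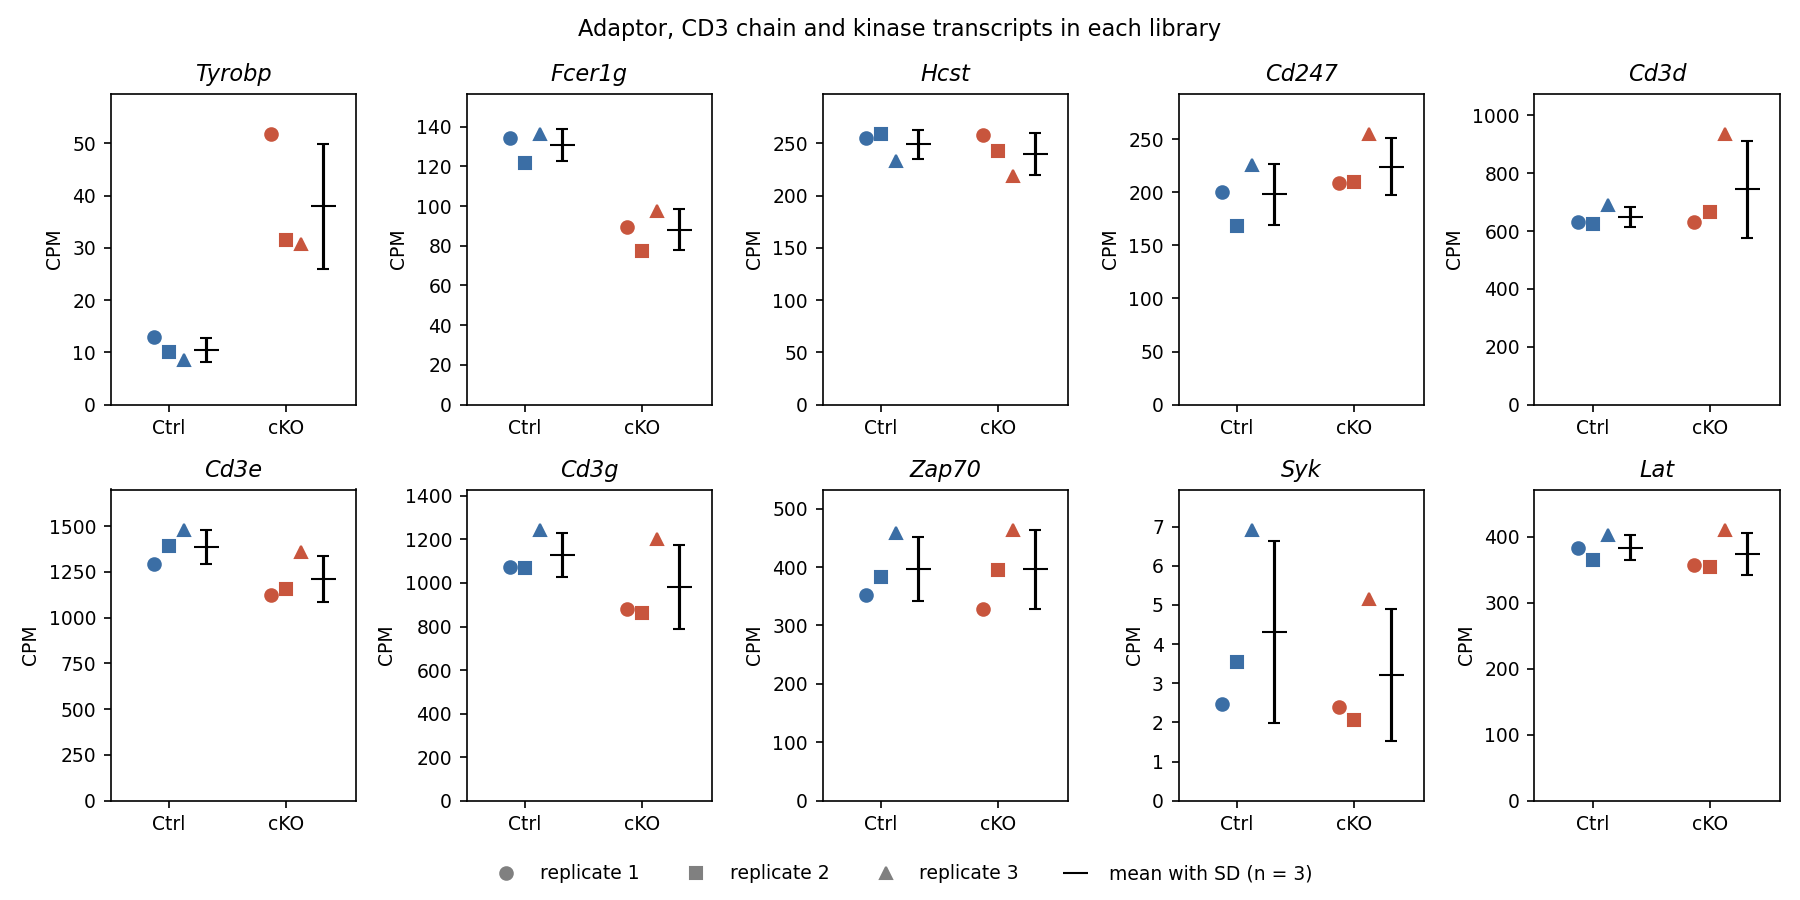
CPM of each of the 10 genes in every library; blue symbols are Ctrl, red symbols cKO, the symbol shape gives the replicate number, and the black mark is the mean with its SD (n = 3). The groups separate for Tyrobp (8.52 to 13.0 against 30.7 to 51.7 CPM) and Fcer1g (122 to 136 against 77.2 to 97.5 CPM) and overlap for the other genes.

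Within the CD3 complex, the chains did not differ in 1 direction. Cd3e, whose product pairs with both the delta and the gamma chain, was read at 1293, 1390 and 1479 CPM in Ctrl and 1126, 1157 and 1358 CPM in cKO. Cd3g was read at 1075, 1068 and 1243 CPM in Ctrl and at 880, 863 and 1203 CPM in cKO. Both were lower in cKO in all 3 same-numbered pairs, yet the groups overlapped because the replicate 3 libraries were the highest of each group. Their mean levels in cKO were 87.5% (Cd3e) and 87.0% (Cd3g) of Ctrl, and neither passed, with limma adjusted p of 0.232 and 0.268 with the replicate block.

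Cd3d was read at 633, 623 and 688 CPM in Ctrl and at 630, 666 and 935 CPM in cKO. Its difference of means came mostly from cKO replicate 3: without that library the log2 fold change was 0.00081, against 0.18 with it (95% interval -0.19 to 0.55). Cd247, which encodes the zeta chain, was read at 199.8, 168 and 225 CPM in Ctrl and at 208, 209 and 255 CPM in cKO. It was higher in cKO in all 3 pairs, with overlapping groups, a log2 fold change of 0.18 and a 95% interval from -0.14 to 0.51. Neither Cd3d nor Cd247 passed in either fit (limma adjusted p with the block 0.512 and 0.419).

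Zap70, the kinase that binds phosphorylated CD3 chains, was read at 352, 382 and 458 CPM in Ctrl and 329, 396 and 463 CPM in cKO, and its means of 397 ± 54.8 and 396 ± 67.3 CPM (SD, n = 3 each) differed by far less than the spread. The 95% interval of its log2 fold change ran from -0.38 to 0.36. Syk, the relative of ZAP-70 that predominates in B and myeloid cells, was read at 2.47, 3.54 and 6.91 CPM in Ctrl and 2.39, 2.07 and 5.14 CPM in cKO. The replicate 3 library was the highest of both groups, and the interval of its log2 fold change, -1.44 to 0.79, leaves its change poorly determined. Lat was read at 383, 364 and 403 CPM in Ctrl and 357, 354 and 410 CPM in cKO, with an interval of -0.26 to 0.18. Syk was lower in cKO in all 3 same-numbered pairs (log2 differences of -0.03, -0.57 and -0.37) and did not pass with the block (limma, adjusted p 0.552). Zap70 and Lat showed no difference beyond the spread between replicates, and none of Zap70, Syk and Lat passed in either fit.

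All 10 genes passed the filter on low values and were tested. With group as the only term, 1 of 10 passed an adjusted p of 0.05 in limma, as higher, where 0.663% of all 15691 tested genes passed, 0.204% as higher and 0.459% as lower. With the replicate block 2 of 10 passed, 1 higher and 1 lower, against 2.87% of tested genes (1.24% higher, 1.64% lower). In replicates 1 and 2 alone the same 2 passed, against 1.85% (0.797% higher, 1.06% lower), and with edgeR on recovered reads 0 of 10 did, against 0.261% (0.0765% higher, 0.185% lower). The groups did not overlap for 2 of 10 genes and for 11.0% of tested genes. The median log2 fold change was -0.05 over the list and -0.04 over all tested genes. Since the genes were chosen with this comparison known, nothing is read from these shares. In the authors' deposited table, Tyrobp had a log2 fold change of 1.91 with an adjusted p of 2.43e-06 and was marked as higher, whereas Fcer1g, at -0.50 with an adjusted p of 0.710, was not marked. That table holds 0.801% of its genes at an adjusted p under 0.05 and marks 0.612%, among them 1 of the 10.

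**Figure D2:**
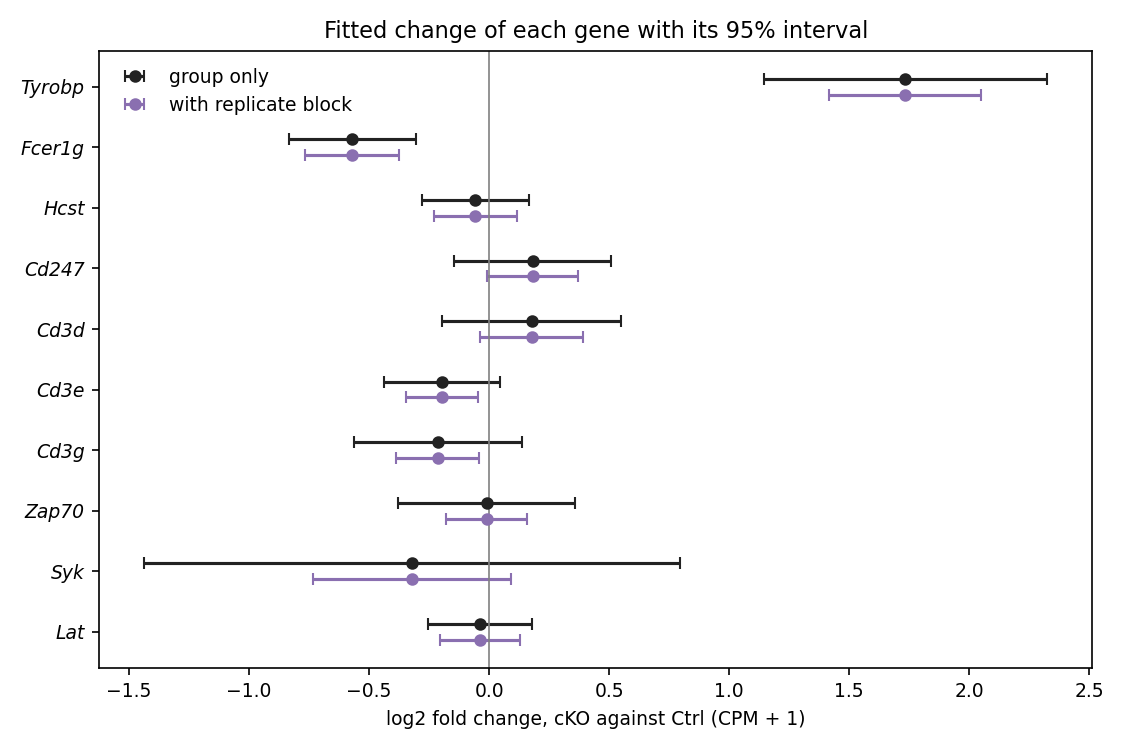
Log2 fold change of each gene, cKO against Ctrl, on the log2(CPM + 1) scale with its 95% interval, from limma with group as the only term (black) and with the replicate block (purple). Tyrobp lies at 1.73 and Fcer1g at -0.57, both with intervals clear of 0, while the black intervals of the other 8 genes include 0. Among these 8 genes, only Cd3e (-0.35 to -0.05) and Cd3g (-0.39 to -0.04) have purple intervals that exclude 0. The intervals are per gene and not adjusted for the number of genes tested. Fcer1g did not pass in the black fit (limma, adjusted p 0.129), nor Cd3e and Cd3g in the purple fit (0.232 and 0.268).

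Ratios of 2 genes within a library do not depend on how libraries are scaled, and 11 such ratios among the 10 genes, chosen after their values were seen, were compared. Tyrobp amounted to 5.09, 3.88 and 3.65 CPM per 100 CPM of Hcst in Ctrl and to 20.1, 12.9 and 14.0 in cKO. Per 100 CPM of Fcer1g, Tyrobp went from a mean of 8.07 ± 1.73 in Ctrl to 43.4 ± 13.4 in cKO (SD, n = 3 each), 5.38 times as much. This follows from Tyrobp being higher and Fcer1g lower, and adds nothing to their separate values. Fcer1g per 100 CPM of Cd247, the chain it can pair with, was 67.3, 72.2 and 60.5 in Ctrl and 42.9, 36.9 and 38.3 in cKO.

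The CD3 chains also differed in proportion. Cd3d amounted to 58.9, 58.4 and 55.4 CPM per 100 CPM of Cd3g in Ctrl and 71.6, 77.2 and 77.7 in cKO, and the mean ratio was 1.31 times the Ctrl mean. Per 100 CPM of Cd3e, Cd3d had a mean of 46.8 ± 2.06 in Ctrl and 60.8 ± 6.996 in cKO (SD, n = 3 each), again without overlap. Cd247 per 100 CPM of Cd3e likewise went from 14.3 ± 1.87 to 18.4 ± 0.33. Cd3g per 100 CPM of Cd3e, at 81.3 ± 3.94 and 80.5 ± 7.22, overlapped, so Cd3g and Cd3e kept a similar proportion while Cd3d and Cd247 were higher relative to them. Ratios without overlap were not rare: among all 3076440 pairs of tested genes whose means reached 100 CPM, 20.1% had none. Tyrobp lay below that level, so the share does not cover its ratios. Of the other ratios compared, Cd247 per 100 CPM of Cd3d (means of 30.4 in Ctrl and 30.6 in cKO) overlapped, as did Lat per 100 CPM of Zap70 (97.4 and 95.6). No test was made of these ratios.

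Cd3g, Cd3d and Cd3e lie in this order on chromosome 9 (44969572 to 44980431, 44981793 to 44987052 and 44998743 to 45009590), with 1361 bases between Cd3g and Cd3d and 11690 between Cd3d and Cd3e. Cd3g and Cd3e lie on the minus strand and Cd3d on the plus strand. Cd3d and Cd3g are thus divergent neighbours, and the deposited spans of the 3 genes do not overlap. Of the nearest genes on either side, Ube4a, Mpzl2 and Mpzl3 had overlapping groups. Atp5l, 48829 bases beyond Cd3g, was higher in each cKO library (38.8 to 47.4 CPM) than in any Ctrl library (31.5 to 35.3 CPM) and did not pass (limma, adjusted p 0.721, and 0.355 with the block). In GENCODE M21 (GRCm38) other annotated genes overlap the spans of Cd247 (Pou2f1 among them), Cd3e, Zap70 and Lat. Some lie on the opposite strand, as Pou2f1 does, and others on the same strand, as Mir7058 does at Lat. Strand-aware counting was not stated, so reads from the opposite strand cannot be told apart at Cd247, Cd3e and Zap70.

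**Figure D3:**
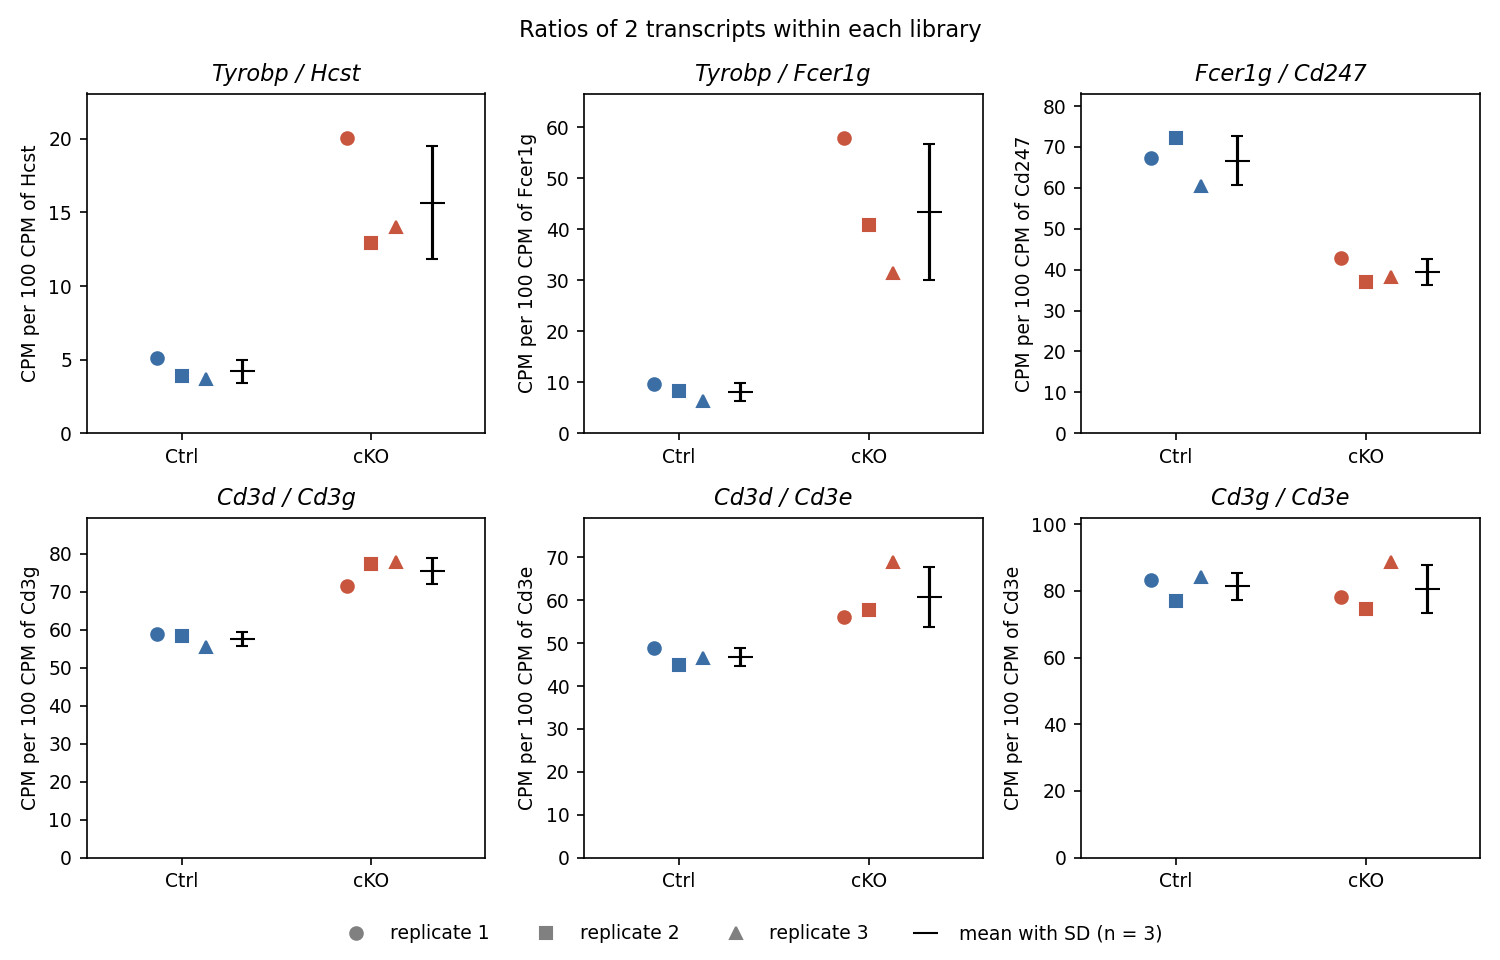
CPM of 1 gene per 100 CPM of another within each library; blue symbols are Ctrl, red symbols cKO, shapes give the replicate number, and black marks the mean with its SD (n = 3). The groups separate in each panel except Cd3g per 100 CPM of Cd3e, where the means are 81.3 and 80.5. Not all ratios compared are drawn, and among those left out are some with overlapping groups.

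Levels of different genes were compared per kilobase of merged exons in GENCODE M21. In Ctrl, Cd3d (357 ± 19.3 CPM per kilobase), Hcst (345 ± 19.4), Cd3g (345 ± 30.3) and Cd3e (340 ± 22.8; SD, n = 3 each) stood highest and did not differ beyond their spread. Fcer1g (149.6 ± 9.12), Lat (139 ± 7.01) and Zap70 (133 ± 18.3) followed, again within each other's spread. Cd247 stood at 37.1 ± 5.36, Tyrobp at 15.8 ± 3.44 and Syk at 0.46 ± 0.25 CPM per kilobase, each clear of the next. Tyrobp was thus the least abundant adaptor in Ctrl, while 76.1% of tested genes still lay below it, and Syk was above only 11.8% of tested genes.

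In cKO the Tyrobp level per kilobase was 56.9 ± 17.9 and that of Fcer1g 100.7 ± 11.7, so Tyrobp reached the range of Cd247 (42.0 ± 4.98) and remained below Fcer1g and Hcst (332 ± 27.2). The order at the top depends on the length used. Per kilobase of the principal transcript, Cd3g (1103 ± 96.9 in Ctrl) and Cd3e (949 ± 63.6) stood above Hcst (564 ± 31.6) and Cd3d (401 ± 21.7), and Cd247 stood at 121 ± 17.5, above Tyrobp in both groups. Tyrobp and Syk were the lowest in Ctrl by either length. In raw CPM, Syk amounted to 1.05 ± 0.42 per 100 CPM of Zap70 in Ctrl and 0.79 ± 0.30 in cKO, with overlapping groups.

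**Figure D4:**
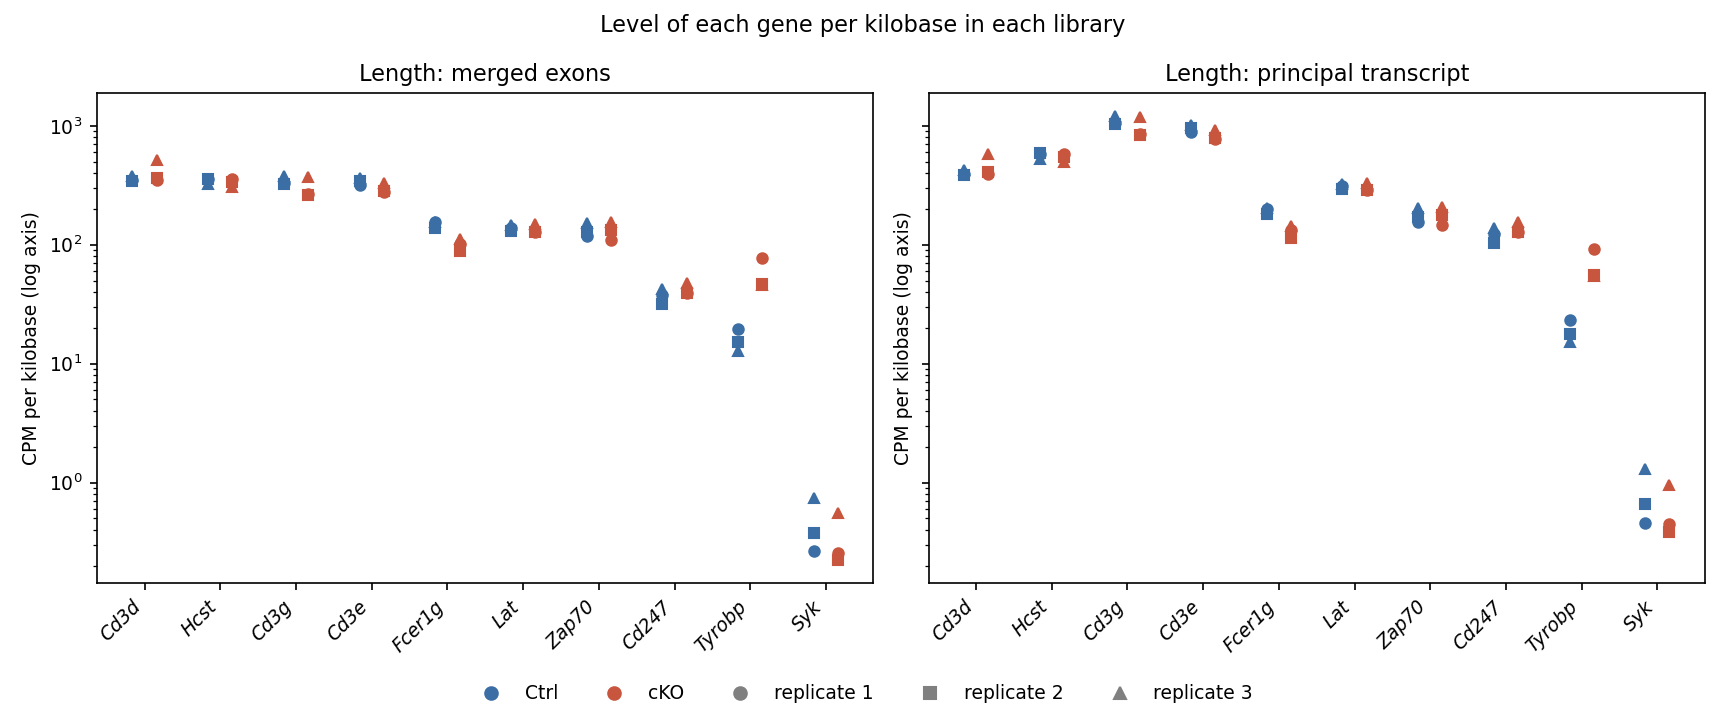
Level of each gene in CPM per kilobase on a log axis, by merged exon length (left) and principal transcript length (right); blue symbols are Ctrl, red symbols cKO, and shapes give the replicate number. Syk lies lowest in both panels, and the red Tyrobp symbols lie above the blue ones (means of 56.9 against 15.8 by merged exons).

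Tyrobp, Fcer1g and Syk are abundant in myeloid cells, and Fcer1g also in mast cells, so markers of other cells were read in the same libraries. Of 16 myeloid markers, 4 were analysed here (Lyz2, Csf1r, Cd68 and Itgam); they summed to between 2.02 and 10.2 CPM in Ctrl and between 2.16 and 9.99 CPM in cKO, and Csf1r was at 0 in both replicate 3 libraries. The other 12 were not found by symbol among the 17985 genes listed, and whether myeloid cells had a part in the differences was not tested. The 5 mast cell and basophil markers summed to between 0.0755 and 13.9 CPM in Ctrl and between 0.26 and 17.1 CPM in cKO, with Fcer1a, Ms4a2, Kit and Prss34 at 0 in both replicate 3 libraries. The 7 B cell markers summed to between 23.1 and 34.5 CPM in Ctrl and between 15.7 and 49.9 CPM in cKO, led by Cd22 and Ms4a1, with Ebf1 at 0 in both replicate 3 libraries. The 7 natural killer and innate lymphoid markers summed to between 20.3 and 66.0 CPM in Ctrl and between 14.5 and 56.9 CPM in cKO, led by Klra4 and Il1rl1, while Ncr1 and Eomes were at or under 2.28 CPM throughout and Kit was at 0 in both replicate 3 libraries. Only 3 myeloid, 3 mast cell and basophil, 6 B cell and 4 natural killer and innate lymphoid markers reached the filter and were tested. None of these passed in either fit. The 6 double-positive thymocyte markers summed to between 130.3 and 138 CPM in Ctrl and between 168 and 211 CPM in cKO; most of it was Cd4, which some iNKT cells also express, and Cd4 passed with the block (limma adjusted p 0.0169). Whether cells of that kind had a part in the differences was not tested.

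Receptors that use these adaptors, and the enzymes and scaffolds around them, were taken from 5 lists made by function, with earlier results of these data known. No gene of these lists passed in limma with group as the only term; unadjusted p was under 0.05 for 3 receptors, 3 proximal effectors, 1 Syk-side effector, 4 negative regulators and 1 constant gene, where 6.02% of all tested genes were under it. Of 14 tested receptors that pair with DAP12, DAP10 or FcR gamma, 2 passed with the replicate block, both higher (all tested genes: 2.87%, 1.24% higher), and the median log2 fold change was 0.065. The log2 fold change was above 0 for 9 of them and below 0 for 5. Klra4, named after its values were seen, was lower in all 3 same-numbered pairs and did not pass (limma, adjusted p 0.154 with the block). Klrb1f, a receptor of the NKR-P1 family, was read at 14.4, 10.1 and 16.2 CPM in Ctrl and 29.8, 45.7 and 37.5 CPM in cKO, without overlap (limma, adjusted p 0.0616, and 0.0075 with the block). Its relative Klrb1a had means of 4.94 ± 0.70 (Ctrl) and 10.3 ± 3.05 CPM (cKO; SD, n = 3 each) and an adjusted p of 0.0362 with the block. Klrk1, which encodes NKG2D and was named after its values were seen, was read at 672, 418 and 533 CPM in Ctrl and 894, 724 and 633 CPM in cKO, with overlapping groups; each pair of equal number had the higher value in cKO (log2 differences of 0.41, 0.79 and 0.25) and missed the threshold narrowly with the block (limma, adjusted p 0.05003, and 0.811 without the block).

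Of 21 proximal T cell receptor effectors, 2 passed with the block, both higher (all tested genes: 2.87%, 1.24% higher), and the median was 0.070. Fyn, a Src-family kinase that phosphorylates activation motifs, was read at 503, 538 and 584 CPM in Ctrl and 680, 754 and 743 CPM in cKO, without overlap (limma, adjusted p 0.173, and 0.0144 with the block). Rasgrp1, an activator of Ras named after its values were seen, was the other (0.0199 with the block). Txk, a Tec-family kinase, had means of 279.5 ± 27.7 and 366 ± 24.9 CPM without overlap and did not pass (limma adjusted p 0.332, and 0.0645 with the block).

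Among 20 negative regulators and inhibitory adaptors, 1 was higher and 2 were lower with the block (all tested genes: 1.24% higher, 1.64% lower). Sla, which encodes an adaptor that favours removal of the T cell receptor from the surface, was read at 303, 329 and 336 CPM in Ctrl and 417, 432 and 470 CPM in cKO, without overlap (adjusted p in limma 0.123, and 0.0128 with the block). Ptpn6, which encodes the phosphatase SHP-1, was read at 1629, 1475 and 1688 CPM in Ctrl and 1151, 1240 and 1187 CPM in cKO (0.133, and 0.0205 with the block). The third was the adaptor gene Lax1, named after its values were seen (0.0486 with the block). Of 9 tested effectors on the Syk side in B and myeloid cells, 1 passed with the block, as lower (all tested genes: 1.64% lower): Lat2, which encodes a relative of LAT, was read at 21.2, 23.7 and 32.0 CPM in Ctrl and 12.9, 13.1 and 10.5 CPM in cKO (0.114, and 0.0254 with the block). Lat2 thus lay lower in every cKO library, while Lat itself overlapped. Pik3ap1, a phosphoinositide 3-kinase adaptor, overlapped at 195 to 216 and 214 to 255 CPM.

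None of the 6 tested T cell receptor constant genes passed in either limma fit, with 1 at an unadjusted p under 0.05 without the block and 4 with it, where 6.02% and 12.6% of all tested genes were under it. Trbc1, with the smallest p without the block, had means of 430.5 ± 25.5 and 522 ± 62.6 CPM (SD, n = 3 each; limma, adjusted p 0.761, and 0.121 with the block), and Trbc2 had means of 492 ± 57.8 and 553 ± 73.9 CPM with overlapping groups. With the block the smallest p was that of Tcrg-C1, a gamma chain constant gene named after its values were seen: it was read at 83.3, 104 and 157 CPM in Ctrl and 64.3, 83.6 and 128 CPM in cKO, lower in all 3 pairs with overlapping groups (limma, adjusted p 0.106 with the block).

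**Figure D5:**
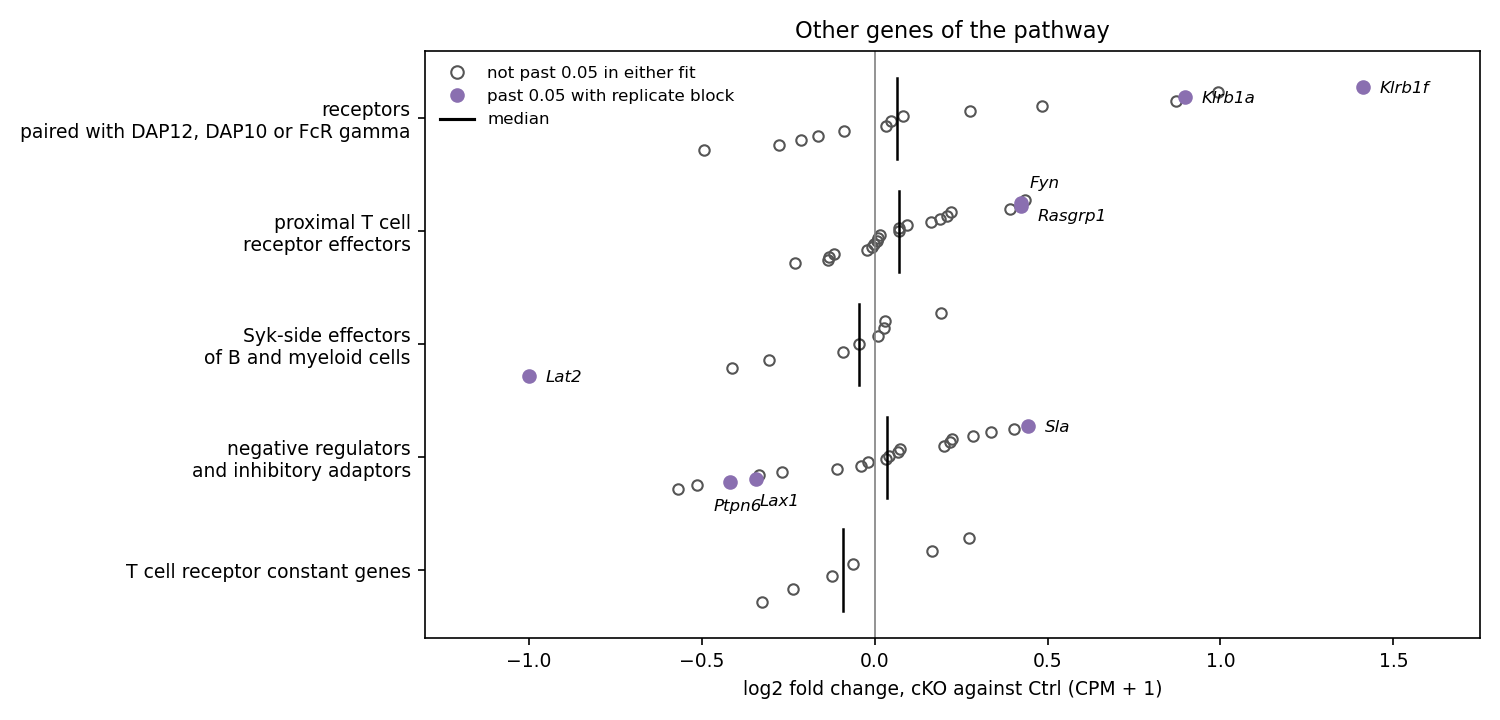
Log2 fold change, cKO against Ctrl, of each tested gene in the 5 lists; purple points with names passed a limma adjusted p of 0.05 with the replicate block, open points passed in neither fit, and vertical lines are the list medians. The 8 named genes range from Lat2 at -1.001 to Klrb1f at 1.41, and the medians lie close to 0.

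The genes most like Tyrobp and Fcer1g over the 6 libraries were found by the Pearson correlation of log2(CPM + 1) among 10140 tested genes whose mean reached 5 CPM. For Tyrobp they were Il18rap (r = 0.996), Grk6 (0.992) and Btla (0.990). Il18rap, which encodes a chain of the interleukin-18 receptor, lay between 299 and 349 CPM in Ctrl and between 480 and 617 CPM in cKO, highest like Tyrobp in cKO replicate 1. For Fcer1g they were Gm2a (r = 0.994), Exosc2 (0.993) and Arhgef39 (0.987), and Gm2a lay between 115 and 123 CPM in Ctrl and between 96.2 and 108 CPM in cKO. These correlations describe 6 points that share their libraries and group means. Between Tyrobp and Fcer1g themselves r was -0.87.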

How the data were processed

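RNA was sequenced from iNKT1 cells in 3 Ctrl and 3 cKO libraries. The authors deposited 1 table with CPM per gene and library, plus their own log2 fold change, average log2 CPM, likelihood-ratio score, p-value and adjusted p-value per gene, per the file headers. The submitters' processing notes name Trimmomatic 0.33, STAR 2.5.2, HTSeq 0.6.1, edgeR and the build mm10; the strand setting was not given in the sources used here. The columns name the groups WT and KO, taken as Ctrl and cKO from the group names, tissue and replicate numbers. The table also holds a length per gene and marks for called genes; the lengths were not used.

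Whole reads were recovered from the CPM: 100% of values lay within 0.01 reads of a whole number in every library. The main test was limma 3.58.1 on log2(CPM + 1) for the 15691 genes whose mean over the 6 libraries reached 1 CPM, group as the only term, trend and robust moderation, and Benjamini-Hochberg adjustment over all tested genes at 0.05. The script was tested on simulated data. Same-numbered libraries deviated together from their group means (correlations of 0.86, 0.69 and 0.92 for replicates 1, 2 and 3). Ctrl replicate 2 also correlated with cKO replicate 1 (0.72), and Ctrl replicate 1 with cKO replicate 2 (0.58). The correlations thus set replicate 3 apart but cannot tell whether replicates 1 and 2 are paired by number. The sample titles give only a replicate number. Every same-numbered value was above 0.1, but so were the 0.72 and 0.58 between libraries of unlike number, so that mark does not settle the pairing. Pairing by number was assumed. The fit with the replicate block, which rests on that assumption, stands beside the main one. edgeR 4.0.16 and DESeq2 1.42.0 on recovered reads were alternatives, among those given in the closing section. With 3 libraries against 3, an exact permutation test of a single gene cannot go below p = 0.1, and none was run.

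The 10 genes and the lists were chosen with earlier results of these data known. Named by rule were the 10 genes and Tgfbr2, the 3 genes most like Tyrobp and like Fcer1g, the nearest 2 genes on each side of Tyrobp, Hcst, Fcer1g and the CD3 cluster, in each pathway list up to 3 genes past the threshold or else the 2 with the smallest p, and in each marker list the 2 highest; the text gives those it needs, and others are said to be named after their values were seen.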

Additional observations from a re-analysis of the deposited data

How the results depend on the processing

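Tyrobp stayed higher and Fcer1g lower in cKO under each alternative tried, at 1.44 to 1.89 and -0.62 to -0.51 (log2) on all or paired libraries and at 1.49 to 1.88 and -0.65 to -0.48 in the fits that left out 1 library. Against 1 gene of the list passing and 104 genes in all, the counts were 2 and 451 with the replicate block, 2 and 514 under TMM scaling with the block (chosen after seeing the data), 0 and 41 under edgeR on the recovered reads, 2 and 469 under edgeR with the block, and 2 and 552 under DESeq2. They were 2 and 291 in replicates 1 and 2 only, 4 and 943 there with the block (chosen after seeing the data, with 1 residual degree of freedom per gene; Cd3e and Cd3g were the added genes), 0 and 26 at a threshold of 0.01, and 0 and 14 to 85 when single libraries were dropped, which leaves fewer samples. With the block, 2 receptors, 2 proximal effectors, 1 Syk-side effector and 3 negative regulators passed, against 0 of each without it; the block changed no other call given in the text beyond Fcer1g, Il2rb and Cd4. Genes near 0 changed direction. Hcst was at 0.0076 under TMM with or without the block and ranged over -0.11 to 0.0071 when single libraries were dropped. Zap70 was at 0.054 under TMM with or without the block, 0.048 under edgeR, 0.034 under edgeR with the block, 0.052 under DESeq2 and -0.13 to 0.12 when single libraries were dropped. Lat was at 0.026 under TMM with or without the block, 0.013 under edgeR, 0.0056 under edgeR with the block and 0.019 under DESeq2. Syk spanned -0.63 to 0.011 when single libraries were dropped, the latter without Ctrl replicate 3, and had no value where a mean of 5 CPM was required. The cause of these changes was not tested. Syk rests on 69 to 366 reads per library, which limits what can be said of it.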
